A study of Homo sapiens with 6 samples.

Results

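The endoplasmic reticulum (ER) folding and secretion machinery was described here by 53 named genes, of which 45 were measured among the 10542 genes listed in the deposited expression table. The members were chosen by name, from their known role in folding, moving or removing proteins of the secretory pathway. The other 8 (HSPA5, DNAJB11, PDIA3, TXNDC11, SEC61B, SEC61G, SPCS1 and XBP1) were not analysed here. Each of the 45 members had at least 143 reads in every library.

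The study examined TFEB, the transcription factor that drives lysosome and autophagy genes, in prostate cancer. DU145, an androgen-independent human prostate cancer line of epithelial origin, was transduced with a lentivirus that overexpresses TFEB (DU145-TFEB, 3 libraries) or with the blank vector lentivirus (DU145-vector, 3 libraries). Poly(A) RNA was sequenced, and between 13999961 and 16511477 reads per library fell on the listed genes. Both groups therefore carry a lentiviral insertion, and the promoter of the construct and whether each line was a pool or 1 clone are not given in the sources used here. Whether the 3 libraries of a group came from separate cultures is not said directly either. The caption of the study's RNA sequencing figure gives 3 independent experiments for its statistics, without saying whether the libraries are meant. The p-values therefore measure only the spread between these libraries, which may be technical.

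Every gene in the table had a deposited adjusted p-value below 0.05 for DU145-TFEB against DU145-vector, so a listed gene had already been picked for a difference between these same libraries. Counts of called members are therefore read only against the share of all listed genes called by the same rule. Values are normalized read counts, that is reads divided by 1 size factor per library, and fold changes are on the log2(normalized count + 1) scale. A gene was called higher or lower at a limma adjusted p-value below 0.05.

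TFEB itself (ENSG00000112561, chromosome 6 from 41683978 to 41736259 on the minus strand, GRCh38) gave normalized counts of 6325, 6301 and 6036 with the TFEB lentivirus against 127, 124 and 125 with the blank vector. The introduced gene was 49.6-fold higher, with no overlap between the groups (log2 fold change 5.62, standard error 0.08, limma adjusted p = 3.18e-10, exact two-sided permutation p = 0.1, the smallest possible with 3 libraries against 3). Reads from the introduced and the cells' own TFEB are counted together. Of the 5 epithelial markers, the keratins KRT8, KRT18 and KRT19 could be read, and the other two (EPCAM and CDH1), the luminal prostate marker KLK3 and the markers PTPRC and PECAM1 of cells that the line should lack were not analysed here. The summed normalized counts of the 3 keratins were 22685, 30605 and 21628 in DU145-TFEB and 41200.4, 36421 and 41780.0 in DU145-vector. All 3 were called lower in DU145-TFEB, with KRT8 the most abundant per kilobase and a log2 fold change of -0.68, -0.78 for KRT18 and -0.38 for KRT19, whose groups overlapped and whose call was lost with DESeq2 size factors or without the first DU145-TFEB library. Each library's trend against transcript GC content and gene length was then removed (described after the role groups). The 3 keratins were further apart between the groups in that fit, at -1.58, -1.67 and -1.51, and all were called lower. The part of this shift in the ER results was not tested.

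Proteins that enter the secretory pathway pass through the SEC61 channel, lose their signal peptide and fold in the ER lumen with help from HSP70 and HSP90 chaperones, disulfide isomerases, prolyl isomerases and the lectin chaperones calnexin and calreticulin, which hold glycoproteins until they fold. Products that fail to fold are drawn back to the cytosol and degraded by the proteasome. ATF6, IRE1 (encoded by ERN1) and PERK (encoded by EIF2AK3) sense unfolded protein in the lumen and raise transcription of the folding genes. The promoters of many chaperone genes carry ER stress response elements, through which ATF6 acts together with the CCAAT-binding factor NF-Y.

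Promoters of 6 members that carry elements tied to the ER stress response are printed first. They were picked by hand, and those of ERO1B, SDF2L1 and HERPUD1, which carry such an element too, are not printed. Each printed promoter is the 250 bases before a RefSeq gene start on GRCh38.p14, read in the direction of the gene, with the element in capitals. The element is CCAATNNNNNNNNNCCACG (ERSE) in CALR (chr19:12938359-12938608, plus strand), CRELD2 (chr22:49918384-49918633, plus strand), PDIA6 (chr2:10812786-10813035, minus strand), HSP90B1 (chr12:103930160-103930409, plus strand) and CANX (chr5:179698679-179698928, plus strand, 1 of its RefSeq starts). It is the shorter ATTGGNCCACG (ERSE-II) in HYOU1 (chr11:119057206-119057455, minus strand). Both were searched on both strands, and a match is a description of letters, not a shown binding site.
CALR: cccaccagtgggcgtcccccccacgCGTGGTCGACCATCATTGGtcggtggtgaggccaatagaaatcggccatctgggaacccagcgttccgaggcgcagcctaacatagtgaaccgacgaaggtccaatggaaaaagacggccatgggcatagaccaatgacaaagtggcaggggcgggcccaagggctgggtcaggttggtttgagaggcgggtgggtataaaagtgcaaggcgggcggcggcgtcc
CRELD2: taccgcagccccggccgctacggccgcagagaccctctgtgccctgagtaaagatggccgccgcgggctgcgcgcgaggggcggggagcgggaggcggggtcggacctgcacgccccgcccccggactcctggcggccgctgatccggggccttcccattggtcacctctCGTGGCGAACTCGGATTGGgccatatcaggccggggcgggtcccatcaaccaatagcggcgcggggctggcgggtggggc
PDIA6: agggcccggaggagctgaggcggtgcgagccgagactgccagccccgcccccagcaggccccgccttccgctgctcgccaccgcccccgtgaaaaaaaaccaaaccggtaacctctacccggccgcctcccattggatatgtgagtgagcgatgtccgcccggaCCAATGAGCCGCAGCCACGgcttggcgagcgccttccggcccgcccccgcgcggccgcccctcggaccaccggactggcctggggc
HYOU1: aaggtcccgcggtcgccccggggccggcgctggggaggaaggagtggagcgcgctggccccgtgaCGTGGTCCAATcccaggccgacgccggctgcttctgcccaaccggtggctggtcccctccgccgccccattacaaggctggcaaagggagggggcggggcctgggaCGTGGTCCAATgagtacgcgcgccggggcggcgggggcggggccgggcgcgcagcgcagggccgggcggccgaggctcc
HSP90B1: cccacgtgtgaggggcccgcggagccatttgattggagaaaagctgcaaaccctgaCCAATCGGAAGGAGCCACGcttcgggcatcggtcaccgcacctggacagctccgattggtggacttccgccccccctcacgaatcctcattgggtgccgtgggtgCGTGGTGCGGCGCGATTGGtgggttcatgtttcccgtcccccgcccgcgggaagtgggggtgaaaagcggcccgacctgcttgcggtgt
CANX: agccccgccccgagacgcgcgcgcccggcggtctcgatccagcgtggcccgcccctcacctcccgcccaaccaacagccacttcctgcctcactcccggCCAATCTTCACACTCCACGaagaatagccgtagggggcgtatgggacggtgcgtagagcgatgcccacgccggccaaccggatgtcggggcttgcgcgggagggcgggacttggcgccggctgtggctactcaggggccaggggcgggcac

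CALR, CRELD2, PDIA6 and HYOU1 were higher in DU145-TFEB (log2 fold changes 1.48, 0.87, 0.44 and 0.69), while HSP90B1 and CANX were lower (-1.16 and -0.72). An ERSE was found in 6 of the 42 measured members that have a promoter window (250 bases before to 50 after the start), against 0.0916% of all 27305 genes with a window and 0.171% of the 7619 listed genes with one. Chaperone promoters were already known to carry such elements, so this excess is no result of these data. The sixth ERSE carrier was ERO1B, so 3 carriers were higher and 3 lower. ERSE-II was found in HYOU1, SDF2L1 and HERPUD1, against 0.0696% of all genes, with 2 of the carriers higher and 1 lower. The ATF6 site TGACGTGG was found in HYOU1, TXNDC5, SEC62, SSR3 and SSR4, against 0.927% of all genes, and in HYOU1 it overlaps an ERSE-II. CACGTG, the E-box core that TFEB and related factors recognize, was found in 8 of the 42 members (CANX, HSP90B1, DNAJB9, PDIA5, SSR1, SSR3, HERPUD1 and ATF6B), against 8.77% of all genes and 12.6% of listed genes. Of these 8 members, PDIA5 and ATF6B were higher and the other 6 were lower. These directions are by the authors' scaling, by which 47.6% of listed genes were called higher and 52.4% lower. The trend against GC content and gene length was then removed (15.2% of listed genes called higher and 54.5% lower). Of the ERSE carriers, CALR (0.66) and PDIA6 (0.60) were called higher in that fit and HSP90B1 (-0.42) was called lower. CANX (0.08), CRELD2 (0.06) and ERO1B (-0.17) were not called. The ERSE-II carriers were then all below 0, with SDF2L1 (-0.53) and HERPUD1 (-0.32) called lower and HYOU1 (-0.12) not called. Of the ATF6-site carriers SEC62 (-0.50) and SSR4 (-0.43) were called lower, and HYOU1, SSR3 (-0.08) and TXNDC5 (0.04) were not called. Of the E-box carriers PDIA5 (0.27) was called higher, CANX and SSR3 were not called, and the other 5, ATF6B (-0.42) among them, were called lower.

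Of the 45 members, 22 were called higher and 23 lower in DU145-TFEB, close to the 47.6% of listed genes called higher and the 52.4% called lower. Of all 45, 22 had their 3 DU145-TFEB libraries above the 3 DU145-vector libraries, against 47.3% of listed genes. Another 22 of the 45 had the DU145-TFEB libraries below, against 52% of listed genes, and ERN1 overlapped. Past the study's size threshold of an absolute log2 fold change above 1.5, limma gave 0 higher members (2.54% of listed genes) and 6 lower ones (16.5% of listed genes). DESeq2 on the recovered reads gave 1 higher member, CALR at 1.72, and 0 lower ones, and edgeR gave 1 (CALR at 1.56) and 4. Shares of listed genes past that cutoff by these tools are not given here, so these counts are no result about the members. The 6 in limma were EDEM3, FKBP14, SEC63, DNAJC3, SPCS3 and SEC62. Without the second DU145-TFEB library only FKBP14 stayed past that threshold, at -1.54. With the authors' scaling the median log2 fold change was -0.22 over the members and -0.36 over all listed genes. With DESeq2 size factors these medians were 0.02 and -0.12. In bulk RNA, fewer cells that express a gene and less of its RNA per cell cannot be told apart.

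**Figure D1:**
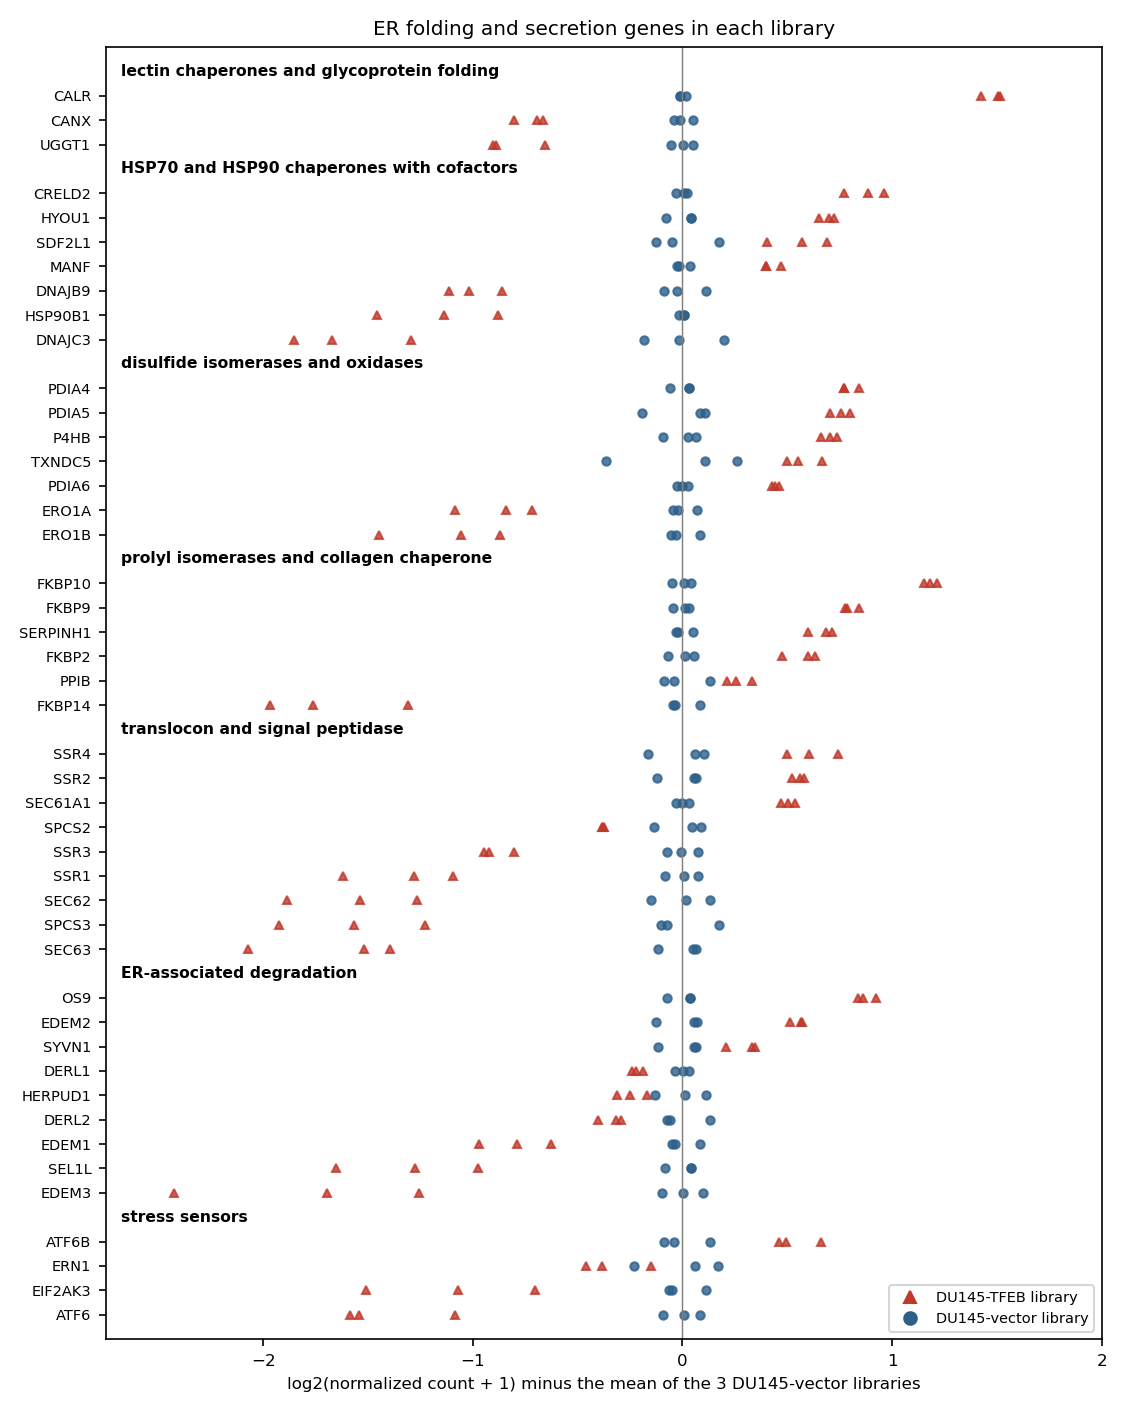
Each of the 45 members by library, grouped by role: the x axis is log2(normalized count + 1) minus the mean of the 3 DU145-vector libraries, triangles are DU145-TFEB libraries and circles DU145-vector libraries. With the authors' scaling both directions appear in every role group, with CALR at the far right, EDEM3 at the far left and the groups of ERN1 overlapping. HERPUD1, DERL1, DERL2, ERN1 and SPCS2 lose their call with size factors estimated over the listed genes, where DERL1 turns to 0.02, and 18 members turn when the composition trend is removed.

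The lectin chaperones moved apart, with 1 of 3 members of this group higher and 2 lower (47.6% and 52.4% of listed genes, median log2 fold change -0.72). CALR (ENSG00000179218, chromosome 19 from 12938578 to 12944489 on the plus strand), the soluble lectin chaperone calreticulin, had normalized counts of 24224, 24419.9 and 22921 in DU145-TFEB and 8648, 8473 and 8476 in DU145-vector. It was 2.80-fold higher, the greatest rise of the 45 members by the authors' scaling (log2 fold change 1.48, standard error 0.06, limma adjusted p = 2.3e-06), and the 2 groups were far apart. CANX, its membrane-bound relative calnexin, had counts of 8003, 7434 and 8179 against 12852, 13418 and 12613. It was 1.65-fold higher in the vector cells, with no overlap (log2 fold change -0.72, standard error 0.07, limma adjusted p = 1.07e-05). UGGT1, the glucosyltransferase that sends incompletely folded glycoproteins back to both lectins, had counts of 1568, 1586 and 1861 against 2938, 3040.0 and 2828. It was also lower in every DU145-TFEB library (log2 fold change -0.82, standard error 0.08, limma adjusted p = 1.9e-05). The trend of each library against transcript GC content and gene length was removed, as for the keratins. CALR then remained higher at 0.66, below SSR2 (0.96), and the calls of CANX and UGGT1 were lost, at 0.08 and 0.03.

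Among the HSP70 and HSP90 chaperones and their cofactors, 4 of 7 measured members were higher and 3 lower (47.6% and 52.4% of listed genes), with a median of 0.42. CRELD2, a stress-induced ER protein, had counts of 1285, 1351 and 1185 in DU145-TFEB and 699, 704 and 680.0 in DU145-vector (log2 fold change 0.87, standard error 0.08, limma adjusted p = 1.18e-05). HYOU1, the large HSP70-type chaperone that recharges the main ER HSP70 with nucleotide, had counts of 11424, 11609.8 and 11062 against 7233, 6665 and 7237 (log2 fold change 0.69, standard error 0.06, limma adjusted p = 1.17e-05). Both were above every vector library. SDF2L1 and MANF, stress-induced partners of the ER HSP70, were higher by smaller amounts, with log2 fold changes of 0.55 and 0.42. HSP90B1 (ENSG00000166598, chromosome 12 from 103930107 to 103953645 on the plus strand), the ER member of the HSP90 family, went the other way, with counts of 6789, 5438 and 8128 against 15035, 15035 and 14756. It was 2.20-fold higher in the vector cells (log2 fold change -1.16, standard error 0.12, limma adjusted p = 2.42e-05), and the 3 DU145-TFEB libraries were spread more widely than the vector libraries. DNAJC3, a J-domain cochaperone, had counts of 279.9, 247 and 363 against 884, 1024 and 788 (log2 fold change -1.61, standard error 0.15, limma adjusted p = 1.37e-05), and DNAJB9, another J-domain cochaperone, had a log2 fold change of -0.999. Both were lower in every DU145-TFEB library. After removal of the composition trend HSP90B1 (-0.42), DNAJC3 (-0.72) and DNAJB9 (-0.41) remained lower, CRELD2 (0.06) and HYOU1 (-0.12) lost their calls, and SDF2L1 (-0.53) and MANF (-0.24) turned lower.

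Of the 7 measured disulfide isomerases and oxidases, 5 were higher and 2 lower (47.6% and 52.4% of listed genes), with a median of 0.57. By a division made after the values were seen, the 5 were the isomerases and the 2 the oxidases. PDIA4 had counts of 11833, 11254 and 11273 in DU145-TFEB and 6744, 6323 and 6736 in DU145-vector (log2 fold change 0.80, standard error 0.06, limma adjusted p = 5.82e-06). PDIA5 had counts of 948, 888 and 921 against 577, 477 and 587 (log2 fold change 0.75, standard error 0.10, limma adjusted p = 9.3e-05). Both isomerases were above every vector library. The other three isomerases were P4HB, the archetypal protein disulfide isomerase (mean 22119.7 ± 569 against 13608 ± 750.4, SD, n = 3, log2 fold change 0.70), TXNDC5 (0.57) and PDIA6 (0.44). ERO1A, the oxidase that passes electrons from the isomerases to oxygen, had counts of 1535, 1298 and 1676 against 2888, 2666 and 2710.0 (log2 fold change -0.88, standard error 0.10, limma adjusted p = 2.91e-05). ERO1B, the second such oxidase, had counts of 219, 166 and 249 against 447, 483 and 439 (log2 fold change -1.12, standard error 0.15, limma adjusted p = 9.29e-05). Neither oxidase overlapped between groups. Once the trend was removed, PDIA6 (0.60) and PDIA5 (0.27) remained higher, P4HB turned lower (-0.29), and PDIA4 (0.06), TXNDC5 (0.04), ERO1A (0.15) and ERO1B (-0.17) were not called.

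Prolyl isomerases, which turn proline bonds during folding, and the collagen chaperone were higher in 5 of 6 cases and lower in 1 (47.6% and 52.4% of listed genes), with a median of 0.62. FKBP10 (ENSG00000141756, chromosome 17 from 41812680 to 41823217 on the plus strand), an ER prolyl isomerase that binds collagen, had counts of 8478, 8281 and 8132 in DU145-TFEB and 3763, 3532 and 3670.0 in DU145-vector. It was 2.27-fold higher with no overlap (log2 fold change 1.18, standard error 0.06, limma adjusted p = 2.3e-06), the second greatest rise among the members by that scaling. FKBP9, a related isomerase, had counts of 4997, 4799.9 and 4777 against 2852, 2702 and 2811 (log2 fold change 0.80, standard error 0.06, limma adjusted p = 5.66e-06). SERPINH1, the collagen chaperone HSP47, and FKBP2 were higher with log2 fold changes of 0.67 and 0.57. PPIB, the ER cyclophilin, differed least in this group, with counts of 1594, 1682 and 1549 against 1255, 1298 and 1462 (log2 fold change 0.27, standard error 0.08, limma adjusted p = 0.0105). FKBP14, a further collagen-binding isomerase, was the exception, with counts of 379.9, 329 and 521 against 1254, 1368 and 1260.0. It was 3.15-fold higher in the vector cells (log2 fold change -1.68, standard error 0.15, limma adjusted p = 9.94e-06), with every DU145-TFEB library below every vector library. With the composition trend removed FKBP10 (0.17) and FKBP9 (0.28) remained higher and FKBP14 (-0.76) remained lower, though FKBP10 lost its call when the replicate block was added. SERPINH1 (-0.26), FKBP2 (-0.56) and PPIB (-0.61) turned lower. By PCR, the study reported FKBP10 and CALR mRNA as significantly higher in DU145-TFEB than in DU145-vector.

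In the translocon and signal peptidase group 3 of 9 measured members were higher and 6 lower (47.6% and 52.4% of listed genes), with a median of -0.89. The 4 subunits of the translocon-associated TRAP complex, which aids insertion of some signal peptides, divided evenly. SSR4 had counts of 1346, 1480.5 and 1249 in DU145-TFEB and 952, 789 and 922 in DU145-vector (log2 fold change 0.61, standard error 0.10, limma adjusted p = 0.000307). SSR2 had counts of 6070.3, 5991 and 5831 against 4222, 3732 and 4243 (log2 fold change 0.56, standard error 0.07, limma adjusted p = 7.1e-05). SSR1 and SSR3 were lower, with log2 fold changes of -1.33 and -0.89. SEC61A1, the pore of the channel, was higher (0.50), whereas both partners of the channel in post-translational import were lower. SEC63, the J-domain partner, had counts of 505, 344 and 551 against 1503, 1518 and 1337 (log2 fold change -1.66, standard error 0.16, limma adjusted p = 1.4e-05), and SEC62 had a log2 fold change of -1.56. SPCS3, a subunit of the signal peptidase, had counts of 381, 297 and 483 against 1073, 1278 and 1053 (log2 fold change -1.57, standard error 0.17, limma adjusted p = 2.14e-05), and SPCS2, a further subunit, had a log2 fold change of -0.38. The call of SPCS2 was lost with DESeq2 (-0.14). For SEC63 and SPCS3 the second DU145-TFEB library was the lowest of all 6. After the same removal SSR2 remained higher, by more than before (0.96), and SEC62, SEC63, SPCS3 and SSR1 remained lower (-0.50, -0.63, -0.56 and -0.25), while SSR4 (-0.43) and SEC61A1 (-0.27) turned lower, SPCS2 (0.34) turned higher and SSR3 (-0.08) was not called.

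Of the 9 genes of ER-associated degradation, 3 were higher and 6 lower (47.6% and 52.4% of listed genes), with a median of -0.24 against -0.36 over all listed genes. OS9, a lectin that delivers misfolded glycoproteins to the ubiquitin ligase, had counts of 4741, 4547 and 4466 in DU145-TFEB and 2570.1, 2378 and 2564 in DU145-vector (log2 fold change 0.87, standard error 0.07, limma adjusted p = 5.21e-06). The EDEM proteins trim mannose from such glycoproteins and mark them for removal. EDEM2 had counts of 1974, 1980.0 and 1904 against 1399.7, 1221 and 1386 (log2 fold change 0.55, standard error 0.08, limma adjusted p = 0.000132). EDEM3 (ENSG00000116406, chromosome 1 from 184690231 to 184754913 on the minus strand) had counts of 312, 188 and 425 against 949, 1086 and 1016. It was 3.30-fold higher in the vector cells, the greatest fall of the 45 members with all 6 libraries and the authors' scaling (log2 fold change -1.79, standard error 0.24, limma adjusted p = 9.31e-05). Its second DU145-TFEB library was the lowest, and without that library EDEM3 was at -1.48, level with DNAJC3 (-1.48) and above FKBP14 (-1.54). EDEM1 was lower at -0.80. The ligase SYVN1 (HRD1) was higher at 0.29, while SEL1L, its adaptor in the membrane, had counts of 1132, 871 and 1394 against 2816, 2817 and 2589 (log2 fold change -1.30, standard error 0.15, limma adjusted p = 3.2e-05). The channel-like DERL1 and DERL2 and the ligase cofactor HERPUD1 were lower by small amounts (-0.22, -0.34 and -0.24). These calls were lost with DESeq2, at 0.02, -0.10 and -0.01. HERPUD1 was no longer called without the first DU145-TFEB library (-0.21), the first vector library (-0.24) or the third vector library (-0.19). Removing the trend made FKBP14 (-0.76) the lowest member and left OS9 higher (0.32) and EDEM1, EDEM3, SEL1L and HERPUD1 lower (-0.39, -0.75, -0.25 and -0.32), whereas EDEM2 (-0.36) and SYVN1 (-0.62) turned lower and DERL1 (0.48) and DERL2 (0.61) turned higher.

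Of the 4 measured stress sensors, 1 was higher and 3 were lower (47.6% and 52.4% of listed genes), with a median of -0.71. ATF6, a membrane-bound transcription factor that is cut free under stress, had counts of 394, 405 and 558 in DU145-TFEB and 1254, 1111 and 1189 in DU145-vector (log2 fold change -1.40, standard error 0.13, limma adjusted p = 1.35e-05). ATF6B, its close relative, had counts of 1159.6, 1185 and 1333 against 921, 791 and 817 (log2 fold change 0.54, standard error 0.09, limma adjusted p = 0.000429). The 2 relatives lay on opposite sides, each without overlap. EIF2AK3, the kinase PERK that slows translation under stress, had counts of 177, 130.1 and 228 against 359.7, 357 and 403 (log2 fold change -1.10, standard error 0.19, limma adjusted p = 0.000424). ERN1, the nuclease IRE1 that splices the XBP1 transcript, had counts of 554, 526 and 653 against 814, 616 and 755, and its groups overlapped (log2 fold change -0.33, standard error 0.13, limma adjusted p = 0.0283). It was not called without the first (-0.30) or second (-0.27) DU145-TFEB library or the first (-0.25) or the third (-0.30) vector library. With DESeq2 it was not called either (-0.10). When the trend was removed, ATF6 (-0.50) and EIF2AK3 (-0.66) remained lower, ATF6B (-0.42) turned lower and ERN1 (-0.10) was not called.

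The direction of a member ran with the base composition of its transcript. GC content of the longest annotated transcript ranged from 35.8% (SPCS3) to 65.5% (SDF2L1). It had a median of 54.3% over the higher members and 40.0% over the lower ones. Of the 21 members with at least 50% GC, 20 were higher, with ERN1 (50.8%) the exception. Of the 24 members below 50%, 22 were lower, with SSR2 (45.2%) and PDIA6 (45.8%) the exceptions. Spearman's rank correlation between fold change and GC content was 0.815 over the 45 members and 0.739 over the listed genes, given as a description because these genes share libraries. The relation was thus present across the table as well as among ER genes. It also varied between libraries of 1 group: the deviation of each library from the mean of the vector libraries had a rank correlation with GC of 0.733, 0.756 and 0.719 for DU145-TFEB libraries 1 to 3, against 0.347, -0.599 and 0.491 for DU145-vector libraries 1 to 3. The vector deviations are from the mean of those same libraries, so opposite signs among them are partly fixed by the centring.

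**Figure D2:**
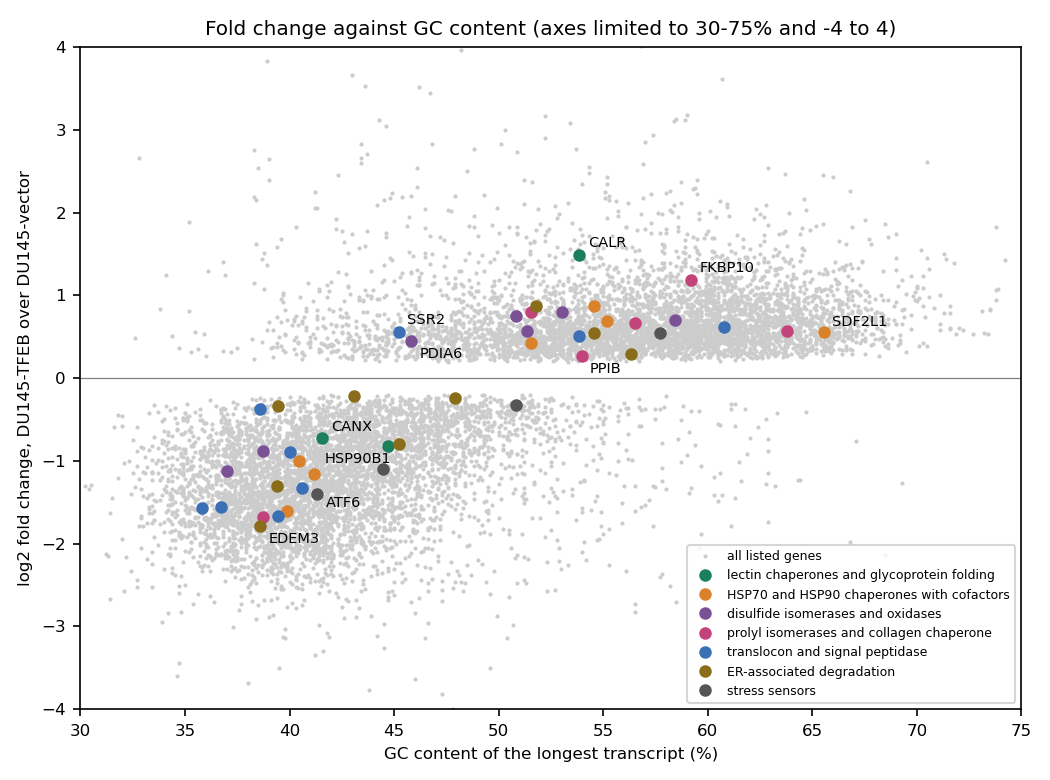
Log2 fold change of DU145-TFEB over DU145-vector (y axis) against GC content of the longest transcript in percent (x axis), with listed genes in grey and the 45 members coloured by role. Higher members lie mostly at or above 50% GC and lower members below it, with SSR2 and PDIA6 higher at 45.2% and 45.8%; DERL1 sits at 0.02 with size factors estimated over the listed genes.

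The trend of every library against GC content and gene length was fitted over the listed genes and removed. This was done to see how much of each difference ran with composition. The rank correlation between fold change and GC content over the members was then 0.046. Of the 45 members, 10 were called higher (15.2% of listed genes), 25 were called lower (54.5% of listed genes) and 10 were not called. In all, 27 members kept their direction and 18 turned. These directions are from the authors' zero, and the listed genes had a median of -0.32 in this fit. Of the members that turned lower, P4HB, SEC61A1, SERPINH1, MANF and HYOU1 lay above that median, and SYVN1, PPIB, FKBP2, SDF2L1, SSR4, ATF6B and EDEM2 lay below it. Called higher both ways were 7 members: CALR, PDIA5, PDIA6, FKBP9, FKBP10, SSR2 and OS9. Adding the replicate block to this fit left FKBP10 uncalled (limma adjusted p = 0.0567). Called lower both ways were 14: HSP90B1, DNAJB9, DNAJC3, FKBP14, SEC62, SEC63, SSR1, SPCS3, SEL1L, HERPUD1, EDEM1, EDEM3, ATF6 and EIF2AK3. Of these, SSR1 (-0.25) and SEL1L (-0.25) lay above the listed median in this fit, and HERPUD1 (-0.32) was level with it. A further 11 went from higher to lower and 3 from lower to higher. Shares of listed genes called both ways or turned are not given here, so these counts are no result about the members. Composition and TFEB separate the same libraries, so their parts in these differences cannot be told apart.

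**Figure D3:**
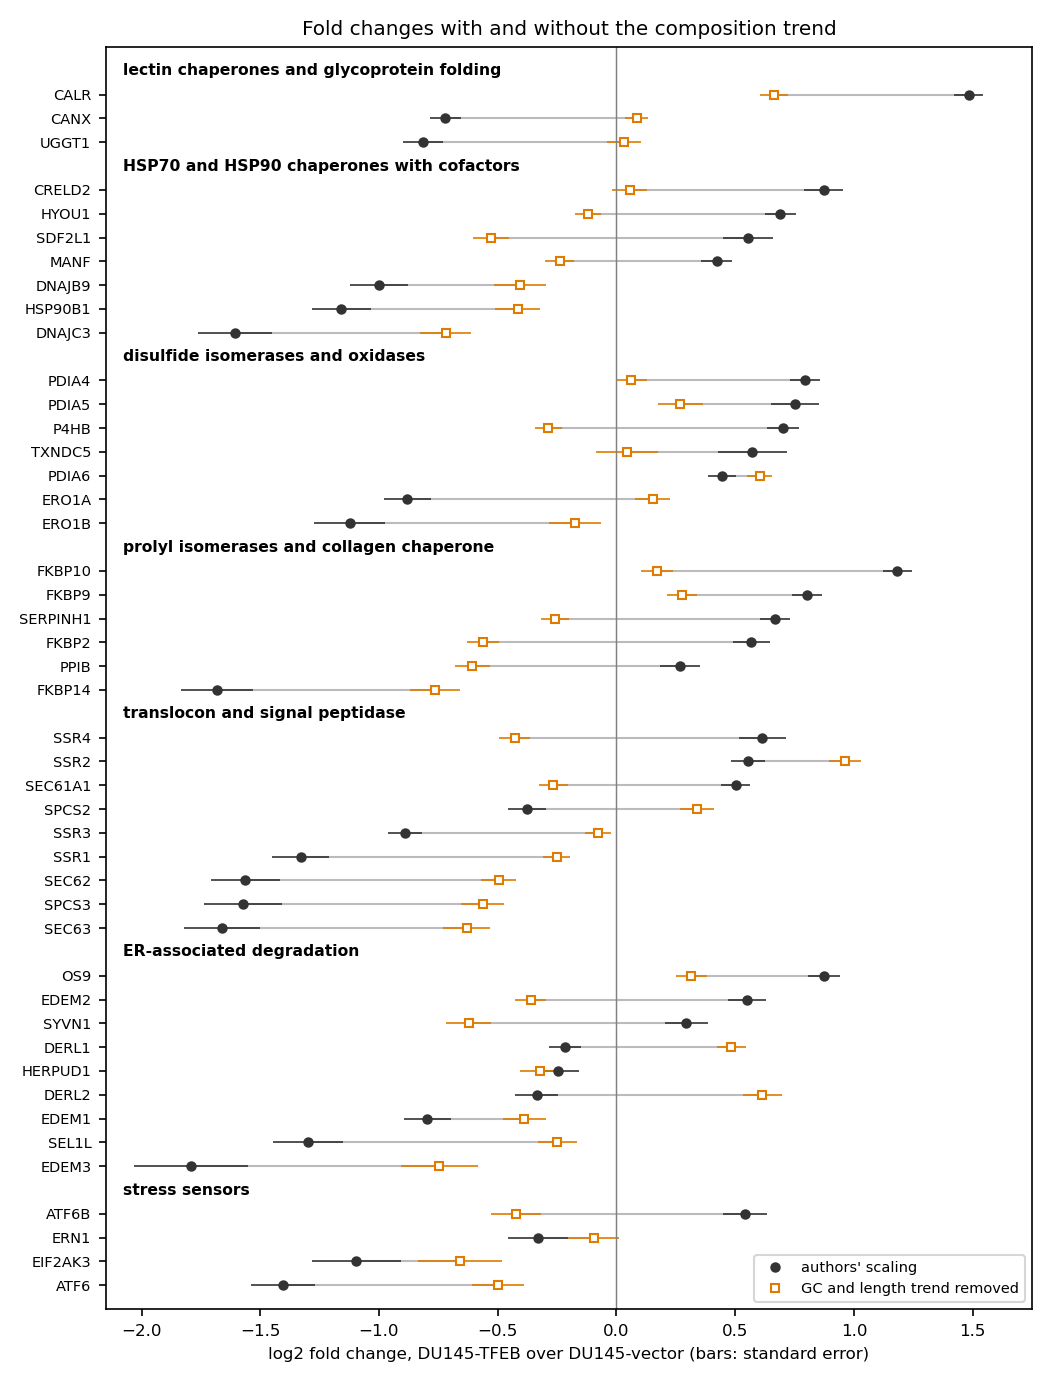
Log2 fold change of each member with standard error bars. Filled circles are with the authors' scaling. Open squares are after the trend against GC content and gene length was removed from each library. The spread narrows from -1.79 for EDEM3 and 1.48 for CALR to -0.76 for FKBP14 and 0.96 for SSR2, and 18 of the 45 members cross 0, DERL1 also with DESeq2 size factors and ERN1 with quantile normalization alone.

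Scaling alone also mattered for the members with small differences. The median log2 fold change of all listed genes was -0.36 with the authors' size factors, -0.12 with size factors from DESeq2 and -0.03 after quantile normalization. Relative to the median of the listed genes, the median of the members was 0.14 higher. CALR stood 1.84 above that median and EDEM3 1.44 below it (-1.44), and both kept their direction under every scaling run. SPCS2, DERL1, DERL2, HERPUD1 and ERN1 were not called with size factors estimated over the listed genes. DERL1 then turned to 0.02, and ERN1 turned to 0.07 under quantile normalization.

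The ratio of reads between related members in 1 library does not depend on any size factor. For each read on CANX there were 3.03, 3.29 and 2.80 reads on CALR in the libraries of DU145-TFEB, against 0.673, 0.631 and 0.672 in those of DU145-vector. Reads on CALR per read on HSP90B1 were 3.57, 4.49 and 2.82 against 0.575, 0.564 and 0.574. Both ratios were above every vector library in every DU145-TFEB library. Within the TRAP complex, reads on SSR2 per read on SSR1 were 3.63, 4.53 and 3.07 against 1.03, 0.874 and 1.11, and reads on SSR4 per read on SSR3 were 0.434, 0.469 and 0.364 against 0.167, 0.125 and 0.155. Reads on ATF6B per read on ATF6 were 2.95, 2.93 and 2.39 against 0.735, 0.712 and 0.687. The proportions of paired members of the lectin, TRAP and ATF6 families thus shifted without overlap between groups. Reads on FKBP10 per read on FKBP14 were 22.3, 25.1 and 15.6 against 3.002, 2.58 and 2.91. This was the widest shift of the 8 pairs before the composition trend was removed. These pairs were chosen after their values were seen, so no test was made of them. After removal of the composition trend the difference in log2 fold change fell from 2.20 to 0.58 for CALR and CANX. For CALR and HSP90B1 it fell from 2.64 to 1.08, and for FKBP10 and FKBP14 from 2.86 to 0.93. For SSR2 and SSR1 it fell from 1.89 to 1.21, the widest of the 8 pairs in that fit. It was 0.07 for ATF6B and ATF6 and reversed to -0.35 for SSR4 and SSR3.

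**Figure D4:**
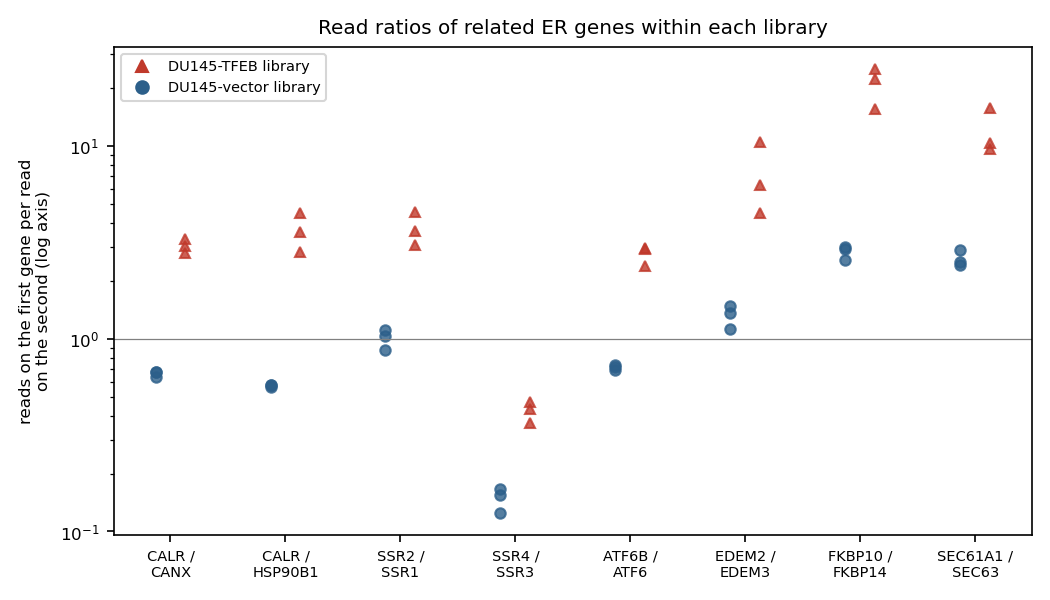
Reads on the first gene per read on the second gene of 8 pairs of related members, on a log axis, in each DU145-TFEB library (triangles) and each DU145-vector library (circles). In all 8 pairs the 3 DU145-TFEB libraries lie above the 3 DU145-vector libraries, which for SSR4 and SSR3 reverses after the composition trend is removed.

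The share of reads that went to the 45 members was 1.12%, 1.08% and 1.12% with TFEB overexpression, against 0.976%, 0.969% and 0.981% with the blank vector. These average 1.11% ± 0.0240 and 0.975% ± 0.00583 (SD, n = 3), with no overlap. CALR gained more normalized counts than any other member, with means of 23855.2 in DU145-TFEB and 8532.5 in DU145-vector. The 22 higher members took 0.880% of reads in DU145-TFEB against 0.525% in DU145-vector, and the 23 lower members 0.226% against 0.451%. The direction of each of these shares was fixed by dividing the members by their own change. CALR had the most reads of any member in each DU145-TFEB library and HSP90B1 in each DU145-vector library. Per kilobase of deposited gene length, HSP90B1 (3183 ± 34.3 normalized counts per kilobase) and CALR (3144 ± 36.9) led the vector cells. The 2 differed by about the spread between libraries. In DU145-TFEB, CALR (8790.0 ± 300.1) led P4HB (4171 ± 107) and PDIA4 (3495 ± 100.4), and HSP90B1 (1445 ± 286) was in place 7.

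Proteins that are soluble in the ER lumen and proteins anchored in its membrane were assigned after the values were seen. Of 24 soluble members, 17 were higher and 7 lower (47.6% and 52.4% of listed genes), and their median was 0.56 on the log2 scale. Of 19 membrane members, 5 were higher (SEC61A1, SSR2, SSR4, SYVN1 and ATF6B) and 14 lower, with a median of -0.38. DNAJB9 and EDEM1, both lower, were left unassigned. The soluble members also had the higher median GC content, 51.7% against 41.6%, and with the composition trend removed the medians were -0.15 and -0.27. By that fit 6 soluble members were called higher and 11 lower, and 4 membrane members higher and 12 lower (15.2% and 54.5% of listed genes).

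The lower members differed among the DU145-TFEB libraries. Their median difference from the vector mean was -1.07, -1.45 and -0.86 on the log2 scale in DU145-TFEB libraries 1 to 3. The second DU145-TFEB library held the lowest value of all 6 libraries for 17 of the 23, and the second vector library held the highest for 16. Shares of listed genes with such extremes are not given here, so these counts are no result about the members. Over all listed genes, those libraries are the one with the strongest relation to GC content and the one with the opposite relation. The vector libraries are measured from their own mean, so opposite signs among them are partly fixed. The part of composition in this spread was not tested. The higher members were more even, at 0.60, 0.70 and 0.63.

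The rest of the ER pathway was read from lists of other genes grouped by function, with 80 of 109 measured, 48 higher and 32 lower (47.6% and 52.4% of listed genes), and a median log2 fold change of 0.29 against -0.36 over all listed genes. The oligosaccharyltransferase, which attaches glycans to entering chains, had 7 of 11 measured subunits and partners higher and 4 lower, with a median of 0.485. TMEM258 (0.79) and DDOST (0.76) were at the top of this list, and STT3B (-1.31), a catalytic subunit, and MAGT1 (-1.10) at the bottom. The other catalytic subunit, STT3A, named after its value was seen, was higher at 0.52 and was also called higher with the trend removed. Glycan-trimming enzymes and lectin cargo receptors had 7 of 11 higher and 4 lower, with a median of 0.48. PRKCSH, the regulatory subunit of glucosidase II, was at 1.20 and the mannosidase MAN1B1 at 0.88, against -1.79 for the cargo receptor LMAN1 and -0.91 for the lectin ERLEC1. Trend removal left 6 oligosaccharyltransferase genes called higher and 2 lower (15.2% and 54.5% of listed genes), with DDOST uncalled (-0.07). It left 2 genes of glycan trimming and cargo receptors called higher and 6 lower (the same shares of listed genes), with MAN1B1 uncalled (0.10). LMAN1 had normalized counts of 1654, 1029 and 2054 in DU145-TFEB and 5199.9, 5325 and 5239 in DU145-vector, without overlap.

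Further thiol oxidoreductases had 7 of 12 higher and 5 lower, with a median of 0.24. Of listed genes 47.6% were higher and 52.4% lower, the share to read beside this list and those that follow. The thiol oxidoreductases ran from ERP29 (0.73) and SELENOM (0.65) to DNAJC10 (-1.63) and TMX3 (-1.82). Other isomerases and collagen-modifying enzymes had 7 of 9 higher and 2 lower, with a median of 0.41. The collagen galactosyltransferase COLGALT1 (1.17) and P3H4 (0.99) were higher, and the lysyl hydroxylase PLOD2 (-1.52) and the prolyl hydroxylase subunit P4HA1 (-1.41) were lower. P4HA1 works as a complex with P4HB, which was higher before the trend was removed. After trend removal SELENOM turned to a called fall (-0.40) and P3H4 was not called (-0.06). The thiol oxidoreductases then had 3 called higher and 5 lower, and the isomerases and collagen modifiers 3 and 3. In that fit 15.2% of listed genes were called higher and 54.5% lower, which holds for the lists below too. Signal recognition and membrane insertion had 11 of 18 higher and 7 lower and a median of 0.27, with ASNA1, the ATPase of tail-anchored protein insertion, at 1.19 and EMC10 at 0.84, against SRP72 at -1.48 and TRAM1 at -1.42, and 8 called higher and 5 lower without the trend. The ubiquitin and extraction steps of degradation had 5 of 12 higher and 7 lower, with a median of -0.51. AUP1 (0.42) was at the top, and the conjugating enzyme UBE2J1 (-1.22) and UBXN4 (-1.78) at the bottom. Without the trend 3 were called higher and 8 lower, and AUP1 turned to a called fall (-0.64). Unfolded protein response genes had 4 of 7 higher and 3 lower and a median of 0.43, with SIL1 (0.81) and WFS1 (0.65) against EIF2S1 (-1.39) and the protease MBTPS2 (-1.69). Their median turned to -0.46 without the trend, with 1 called higher and 5 lower, WFS1 called lower (-0.37) and SIL1 not called (-0.18). With the composition trend removed, 26 of the 80 other ER genes were called higher and 34 lower (15.2% and 54.5% of listed genes), and the median was -0.07 against -0.32 over the listed genes.

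Cytosolic chaperones, which fold proteins outside the ER, were read for comparison. Of 20 measured, 6 were higher and 14 lower (47.6% and 52.4% of listed genes), and their median was -0.69 on the log2 scale. HSP90AA1, a cytosolic relative of HSP90B1, averaged 7768 ± 743 normalized counts in DU145-TFEB against 26032 ± 1919 for the vector cells (SD, n = 3, log2 fold change -1.75, standard error 0.09, limma adjusted p = 2.3e-06). HSPH1 was lower at -2.06. HSPA1B (1.17) and HSPA1A (1.05), the inducible HSP70 genes, were higher, but they are near-identical copies whose reads may have been split between them. Whether the cytosolic list differed from the ER members was not tested. After trend removal the calls of HSPA1B (0.13) and HSPA1A (-0.03) were lost, 1 other cytosolic chaperone (ST13, named after its value was seen) was called higher and 15 were called lower (15.2% and 54.5% of listed genes), and HSP90AA1 remained at -1.42.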

How the data were processed

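The submitters' processing notes name CASAVA 1.8, the aligner HISAT2 2.1.0, edgeR and GRCh38, and the study names DESeq2 for its comparison. The counting program, its annotation and whether strand was used are not given in the sources used here, so reads of a gene and of an overlapping antisense gene cannot be told apart. The deposited values are read counts that the authors divided by 1 size factor per library (a normalized signal). In the third vector library the factor was 1, and its column holds whole counts. In the other libraries 100.0% of values came out as whole reads (tolerance 0.1), with size factors from 0.9504 to 1.099. The table also holds the authors' fold changes and p-values, which were read only to see that all 10542 listed genes had an adjusted p-value below 0.05.

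All listed genes were fitted together on log2(normalized count + 1) with limma 3.58.1 in R 4.3.3 (trend, Benjamini-Hochberg over all listed genes, threshold 0.05). On the recovered reads, DESeq2 1.42.0 called 22 members higher and 18 lower as an alternative, and edgeR 4.0.16 called 22 higher and 20 lower. Both tools also called fewer of all listed genes lower than limma did. The shares of listed genes they called are not printed, so these member counts are no result about the members. GC content was that of the longest GENCODE 29 transcript, and gene length was the deposited value. Trends against both were removed per library by loess (span 0.5), over the 10537 genes with a GC content. The fits were tested on simulated data.

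The members and lists were chosen with earlier results of these data known. Per-library values are given for CALR, FKBP10, HSP90B1, the stress sensors and the 2 highest and 2 lowest members of each role group, and of each other list the highest 2 and lowest 2 are named, apart from 1 gene that is not reported here. The per-library values of LMAN1, the naming of STT3A, the division of isomerases from oxidases, the split into soluble and membrane proteins and the pairs of members were chosen after the values were seen. Promoters came from RefSeq (GRCh38.p14), where 42 measured members had a window, and the printed ones were picked by hand. Planned protein features were not analysed here.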

Additional observations from a re-analysis of the deposited data

How the results depend on the processing

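Besides the reported fit, 19 settings were run: other pseudocounts, a filter of at least 10 reads, other size factors, DESeq2, edgeR, the replicate block, removal of the composition trend, protein-coding genes only and each library left out. Of the 45 members, 19 were called in the same direction in every one of these settings, 26 kept 1 direction and 19 reversed in at least 1. The matching shares of listed genes are not given here, so these counts are no result about the members. TFEB remained higher in every setting. In the single-gene results of the members, a further 38 values kept their direction but lost their call.

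The 22 members called higher became 10 with the composition trend removed and 9 with the trend removed and the replicate block, where FKBP10 was lost. The 48 other ER genes called higher became 26 in both fits, and the 5014 listed genes called higher became 1604 and 1554. Members higher past the log2 cutoff of 1.5 went from 0 to 1 (CALR) with DESeq2 size factors, upper quartile normalization, DESeq2 or edgeR, and to 2 and 11 with cutoffs of 1 and 0.58. Members lower past the cutoff went from 6 to 1 with DESeq2 size factors, 2 with upper quartile normalization, 0 with quantile normalization, DESeq2 or the trend removed with or without the block, and to 12 and 18 with cutoffs of 1 and 0.58. With 1 library left out, the members past the cutoff ranged from 0 to 1 higher (1 without the third DU145-TFEB library) and from 1 to 7 lower (1 without the second DU145-TFEB library). Shares of listed genes past a cutoff are given only for the reported fit (2.54% higher and 16.5% lower). The other counts past a cutoff are therefore no result about the members. The members' median of -0.22 became 0.0237 with DESeq2 size factors, 0.0238 with DESeq2, 0.0657 with quantile normalization, -0.0386 with upper quartile normalization, -0.27 with library size and -0.14 with edgeR. The share of reads on the members, 0.130 percentage points higher in DU145-TFEB, was 0.203 points higher without the 20 most abundant listed genes.

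With the composition trend removed, with or without the block, 18 members reversed: CANX (0.0848), UGGT1 (0.0338), ERO1A (0.15), SPCS2 (0.34), DERL1 (0.48) and DERL2 (0.61) to higher, and HYOU1 (-0.12), SDF2L1 (-0.53), MANF (-0.24), P4HB (-0.29), FKBP2 (-0.56), PPIB (-0.61), SERPINH1 (-0.26), SEC61A1 (-0.27), SSR4 (-0.43), SYVN1 (-0.62), EDEM2 (-0.36) and ATF6B (-0.42) to lower. DERL1 was 0.0237 with DESeq2 size factors and 0.0238 with DESeq2, and ERN1 was 0.0657 with quantile normalization. The cause of these changes was not tested.

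The replicate numbers did not pair the libraries: deviations of same-numbered libraries correlated at -0.018, -0.246 and -0.141. With the replicate block 22 members were called higher and 23 lower, as without it, and no library correlated best with its own number. The shares of listed genes called with the block alone are not printed, so these 2 counts are no result about the members.

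Depth limits little here, since the fewest reads on a member in any library was 143. The table holds only genes selected on these libraries, so genes that did not differ could not be read.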
